A study of Mus musculus with 6 samples.

Results

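The genes of chemokines, interleukins, tumour necrosis factor (TNF) family members, colony stimulating factors and their receptors were followed in RNA-seq libraries of mouse cerebellar endothelial cells. They were chosen by symbol, from the stems Ccl, Cxcl, Cx3c, Ccr, Cxcr, Ackr, Il, Tnfrsf, Tnfsf and Csf. Of 65 listed genes with such a symbol, 61 reached a normalised value of at least 10 in at least 3 of the 6 libraries and were kept, out of 14076 genes kept in all. The 3 control libraries came from wild-type mice and the other 3 from Ccm3 knock-out mice. All mice carried the strain label C57BL6 and were at postnatal day 9. Ccm3 is now named Pdcd10, and its loss causes cavernous malformations of brain vessels. The sources used here do not give how, in which cells or from what age the gene was deleted. Cells were taken from dissociated cerebella with CD45 beads (CD45 marks leukocytes) and CD31 beads (CD31 is an endothelial surface protein), and the comparison asks which of these genes differ in level with the genotype.

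Chemokines are small secreted proteins that direct leukocytes and some vessel cells through receptors coupled to G proteins, and atypical receptors take them up without that coupling. Interleukins and colony stimulating factors mostly act through receptors that share chains and signal through JAK and STAT proteins. Ligands of the TNF family bind receptors that signal to NF-kappaB or, for those with a death domain, to apoptosis. Brain endothelial cells both make such ligands and carry such receptors, and endothelial chemokine genes such as Cxcl1 and Cxcl2 are known targets of NF-kappaB.

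Pdcd10 itself was lower in all knock-outs, with 529, 522 and 689 normalised reads in the wild-type mice against 230.1, 154 and 309 (fold 0.39, adjusted p = 0.0162). The libraries held 11075769 to 21142333 recovered reads, in which 3 reads of a gene give a value of 1.96 to 3.41. All 14 endothelial markers were kept, with a summed level of 156671 to 178238 in wild-type and 136356 to 165831 in knock-out, and 1 of them, the transporter gene Slco1a4, fell (fold 0.38, limma adjusted p = 0.0116). Of 24 microglia and macrophage markers 12 were kept, with a summed level of 1271 to 1321 in wild-type and 1209 to 1414 in knock-out, and Lyve1 alone rose (3.25-fold). Aif1, Trem2, Tyrobp and Ms4a7 of that list are not listed. The microglial markers P2ry12 and Tmem119 stayed between 2.97 and 24.1, and C1qa and Cd163 were at 0 in at least 1 library. The mean log2 level of the kept microglia and macrophage markers outside the 61 genes was 5.17, 5.70 and 5.11 in wild-type and 5.62, 5.96 and 5.67 in knock-out, ranges that overlap. Of 20 markers of other leukocytes 2 were kept, Cd79a and Lcn2; neither was called, and their sum was higher in every knock-out library (19.0 to 28.2 against 29.5 to 46.2). Marker sums of erythroid cells (10034 to 19943 against 5478 to 6674), fibroblasts (10685 to 18134 against 6638 to 9414) and astrocytes (6186 to 7389 against 3828 to 4399) were lower in every knock-out library. The platelet sum was higher (105 to 109 against 119 to 357), and the platelet marker Tubb1 rose 7.91-fold (limma adjusted p = 0.0351). Mean log2 levels also lay apart for erythroid markers. They overlapped for fibroblast (8.14 to 9.03 against 7.86 to 8.53), astrocyte (7.26 to 7.86 against 6.997 to 7.47) and platelet markers (4.27 to 4.54 against 4.49 to 5.97). Gja1 gave 3578 to 4125 of the astrocyte sum against 2095 to 2190. Igf2 gave 5243 to 10718 of the fibroblast sum against 2846 to 4759. Pericyte (42383 to 83507 and 43503 to 57373), neuron (4235 to 4589 and 2708 to 5653) and oligodendrocyte sums (2094 to 9548 and 1431 to 4659) overlapped. Y-linked genes summed to 1.49 in wild-type 1 and to 813 to 4017 in the others. The part of these cells in the results was not tested beyond the fits given below, and in bulk libraries fewer cells of a type and less RNA per cell cannot be told apart.

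In the knock-out, 10 of the 61 genes rose and 4 fell. Those that rose were the chemokine ligands Cxcl1, Cxcl2, Cxcl16 and Cx3cl1, the interleukin receptor genes Il20rb and Il6ra, and the TNF receptor genes Tnfrsf10b, Tnfrsf11a, Tnfrsf12a and Tnfrsf23. Cxcr4, Il4ra, Tnfrsf11b and Tnfrsf19, all receptor genes, fell. A gene is said to have risen or fallen where limma on log2(value + 1) gave a Benjamini-Hochberg adjusted p under 0.05 over all genes kept. That is 23.0% of the 61 genes called, against 6.24% of all genes kept; 16.4% rose, against 3.6% of all genes, and 6.56% fell, against 2.64%. Groups did not overlap in 27 of the 61 genes (44.3%), 17 higher and 10 lower in knock-out, against 25.5% of all genes. The median log2 change was 0.22 over the 61 genes and -0.0067 over all genes. Of the 17 ligand genes of every family 4 rose and none fell, and of the 43 genes of receptors and binding proteins 6 rose and 4 fell. With the microglia and macrophage level as a term in the fit none of the 14 genes was called (adjusted p 0.0512 to 0.467), and 3 of all 14076 genes were called. All 14 kept their sign there, and their log2 changes were 0.57 to 1.28 times those without the term, at least as large in 6 genes and smaller in 8. The lowest of these ratios was that of Cxcl1, from a log2 change of 1.03 to 0.58, the highest that of Tnfrsf23, from 2.20 to 2.82, and Cxcr4 had -1.15 without the term and -1.24 with it.

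**Figure D1:**
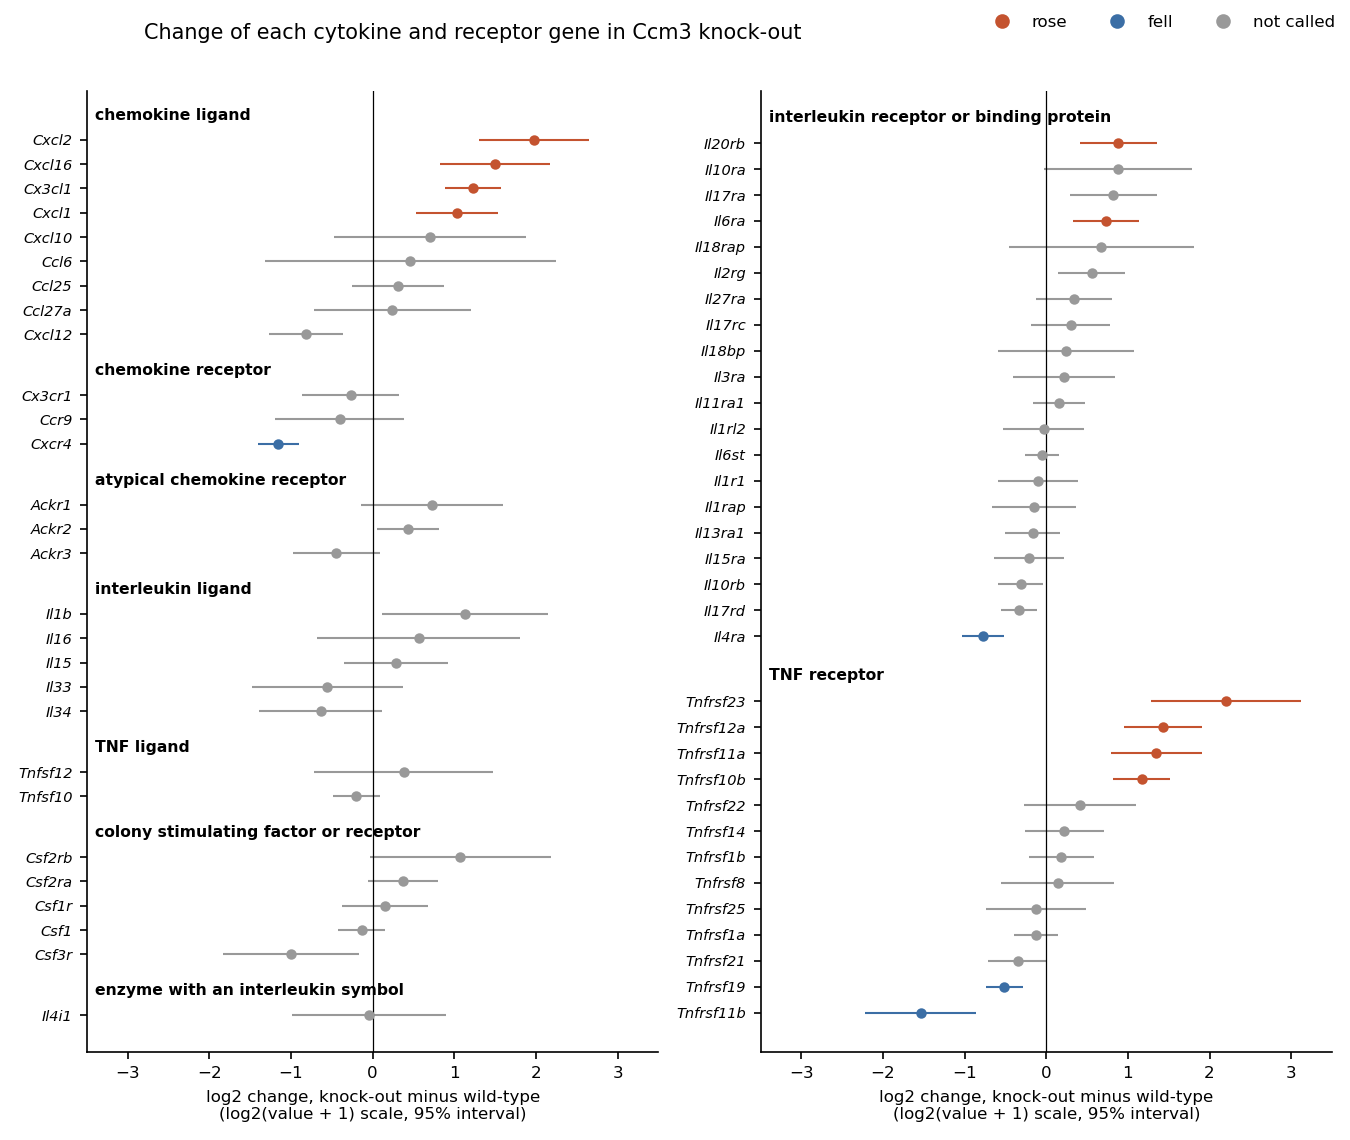
Log2 change (knock-out minus wild-type, on the log2(value + 1) scale) of each of the 61 genes, grouped by role, with 95% intervals from limma; red genes rose, blue genes fell and grey genes were not called. Chemokine ligands and TNF receptors hold 8 of the 10 genes that rose.

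Among the 9 chemokine ligand genes 4 rose, none fell and 5 were not called (44.4% called, against 6.24% of all genes kept), with a median log2 change of 0.70. Cxcl1 and Cxcl2 encode ligands of Cxcr2 that attract neutrophils. They lie 10755 bases apart on chromosome 5 of GRCm38 in the GENCODE annotation, Cxcl1 at 90891241 to 90893115 and Cxcl2 at 90903871 to 90905938, both on the plus strand. The 250 bases before the RefSeq start of each gene are shown because both hold the same match to the NF-kappaB consensus. Those of Cxcl10 are shown too, a chemokine gene of the same chromosome that holds other, separate matches and was not called. Sequences are from RefSeq (GRCm38.p6), 5′ to 3′ on the gene's strand, at chr5:90890995-90891244 (plus), chr5:90903649-90903898 (plus) and chr5:92348890-92349139 (minus), with every match in capitals:
Cxcl1: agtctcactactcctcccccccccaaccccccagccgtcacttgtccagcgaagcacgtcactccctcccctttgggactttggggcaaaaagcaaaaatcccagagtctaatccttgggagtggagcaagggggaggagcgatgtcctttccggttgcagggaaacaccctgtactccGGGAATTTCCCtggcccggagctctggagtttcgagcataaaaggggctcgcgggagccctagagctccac
Cxcl2: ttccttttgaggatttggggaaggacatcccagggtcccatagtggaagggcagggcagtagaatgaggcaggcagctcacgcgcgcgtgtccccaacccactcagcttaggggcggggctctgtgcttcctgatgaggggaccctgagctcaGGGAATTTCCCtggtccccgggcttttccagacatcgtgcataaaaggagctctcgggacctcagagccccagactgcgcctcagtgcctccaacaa
Cxcl10: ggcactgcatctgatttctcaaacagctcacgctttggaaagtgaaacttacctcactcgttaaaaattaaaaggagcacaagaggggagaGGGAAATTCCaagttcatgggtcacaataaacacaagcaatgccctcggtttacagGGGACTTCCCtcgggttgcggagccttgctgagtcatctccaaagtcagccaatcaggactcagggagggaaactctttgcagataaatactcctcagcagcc
The match in Cxcl1 and Cxcl2, GGGAATTTCC on the gene's strand, overlaps a match on the other strand 1 base on, so that GGGAATTTCCC is in capitals. It ends 61 bases before the RefSeq start of Cxcl1 and 87 before that of Cxcl2. The RefSeq starts lie 4 and 28 bases inside the genes as GENCODE gives them, and 57 and 59 bases lie between the match and the GENCODE starts.

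Cxcl1 had 324, 390.5 and 232 normalised reads in wild-type libraries 1, 2 and 3, against 614, 784 and 523 in knock-out libraries 1, 2 and 3 (the order used throughout). Every knock-out library lay above every wild-type library, and Cxcl1 rose 2.04-fold (95% interval 1.45 to 2.89, limma adjusted p = 0.0303). Cxcl2 had 43.8, 48.1 and 25.3 normalised reads in the wild-type mice against 138, 197 and 127 in the knock-outs. It rose 3.94-fold (2.46 to 6.29, adjusted p = 0.00771), with no overlap between the groups and the lowest value of each gene's wild-type group in the same library, wild-type 3. The call of Cxcl1 was lost with wild-type 1 or 3 or knock-out 1 or 2 left out (adjusted p = 0.0869, 0.0748, 0.0617 and 0.0998) and with the Y-linked level added (0.0713); that of Cxcl2 held without each library in turn.

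Cx3cl1, on chromosome 8 (94772009 to 94782427), encodes fractalkine, a membrane-bound chemokine that is shed and is read by Cx3cr1 on microglia and monocytes. It had 257, 236 and 259 normalised reads in the wild-type mice against 575, 717 and 496 in the knock-outs. The wild-type libraries lay close together and all 3 knock-out libraries lay well above them, a rise of 2.35-fold (1.85 to 2.98, limma adjusted p = 0.00344) that held without each library in turn. Cxcl16, on chromosome 11 (70453983 to 70459984), encodes another membrane-bound chemokine, the ligand of Cxcr6. It had 22.3, 22.0 and 15.3 normalised reads in the wild-type mice against 59.4, 71.1 and 44.3 in the knock-outs, and rose 2.82-fold without overlap (1.77 to 4.50, adjusted p = 0.0230). Its exons share 552 bases with Zmynd15 on the other strand (mean 5.66 in wild-type and 12.4 in knock-out, not called), and the strand setting of the counting is not given. The call of Cxcl16 was lost with wild-type 1, 2 or 3 or knock-out 1 or 2 left out (adjusted p = 0.0641, 0.0853, 0.0766, 0.0583 and 0.0859) and with the Y-linked level added (0.0554).

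Cxcl12, the ligand of Cxcr4 that guides vessel cells and haematopoietic cells, had the highest level per length of the 61 genes in wild-type, 1415 ± 362 normalised reads per kb of exon (SD, n = 3). Its values were 8930, 11011 and 14777 normalised reads in the wild-type mice against 5264, 7233 and 7004 in the knock-outs. Every knock-out library was below every wild-type library, but the gene did not pass the test (fold 0.57, 0.41 to 0.78, limma adjusted p = 0.0507). It passed without wild-type 1 (adjusted p = 0.0438), with the replicate number as a block (0.0147), a minimum of 50 (0.0458), upper-quartile scaling (0.0446), array weights (0.0357) or the pericyte level as a term (0.0257), and in DESeq2 (0.000582). Among the chemokine ligands not called, Cxcl10, an interferon-induced ligand of Cxcr3, spread over 20.8, 44.1 and 9.03 normalised reads in the wild-type mice against 29.2, 33.3 and 39.7 in the knock-outs (fold 1.62, 0.72 to 3.68). Ccl6, Ccl25 and Ccl27a had fold values of 1.37, 1.24 and 1.18, with overlapping groups.

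Of the 3 chemokine receptor genes, Cxcr4 fell and 2 were not called, while 2.64% of all genes kept fell. Cxcr4, on chromosome 1 (128588199 to 128592293), encodes the signalling receptor of Cxcl12 and is known as a gene of sprouting endothelial tip cells. It had 912, 1051 and 1079.8 normalised reads in the wild-type mice against 422, 486 and 455 in the knock-outs. The groups were far apart relative to the spread within each, 1014 ± 89.8 and 455 ± 31.9 (SD, n = 3), a fold of 0.45 (0.38 to 0.54, limma adjusted p = 0.00171) that held without each library in turn. Cx3cr1, the fractalkine receptor and a marker of microglia, had 44.6, 40.05 and 39.7 normalised reads in the wild-type mice against 27.3, 43.1 and 34.1 in the knock-outs, overlapping ranges (fold 0.83, 0.55 to 1.26). Ccr9, the receptor of Ccl25, had a fold of 0.76 (0.44 to 1.30), also with overlap.

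None of the 3 atypical chemokine receptor genes was called, and DESeq2 and edgeR called none either, while 1 had an unadjusted p under 0.05. Over all genes tested, DESeq2 called 9.95% and edgeR 6.37%, and 19% had an unadjusted p under 0.05 in limma. Ackr2, which takes up inflammatory CC chemokines, had 1161, 1286 and 1312 normalised reads in the wild-type mice against 1851, 2014 and 1291 in the knock-outs (fold 1.35, 1.04 to 1.75, limma adjusted p = 0.198). Knock-out 3 lay within the wild-type range and the other 2 above it, and without knock-out 3 the gene was called (adjusted p = 0.0125). Ackr3, the scavenging receptor of Cxcl12, had 228, 310 and 231 normalised reads in the wild-type mice against 189, 248 and 137 in the knock-outs (fold 0.73, 0.51 to 1.06). Ackr1, a chemokine-binding protein known from venular endothelium, had 40.8, 30.7 and 15.3 normalised reads in the wild-type mice against 48.1, 52.9 and 36.3 in the knock-outs (fold 1.66, 0.91 to 3.03). Of Ackr1's 50-base stretches 20.4% also occur in its neighbour Cadm3, so its reads are uncertain.

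**Figure D2:**
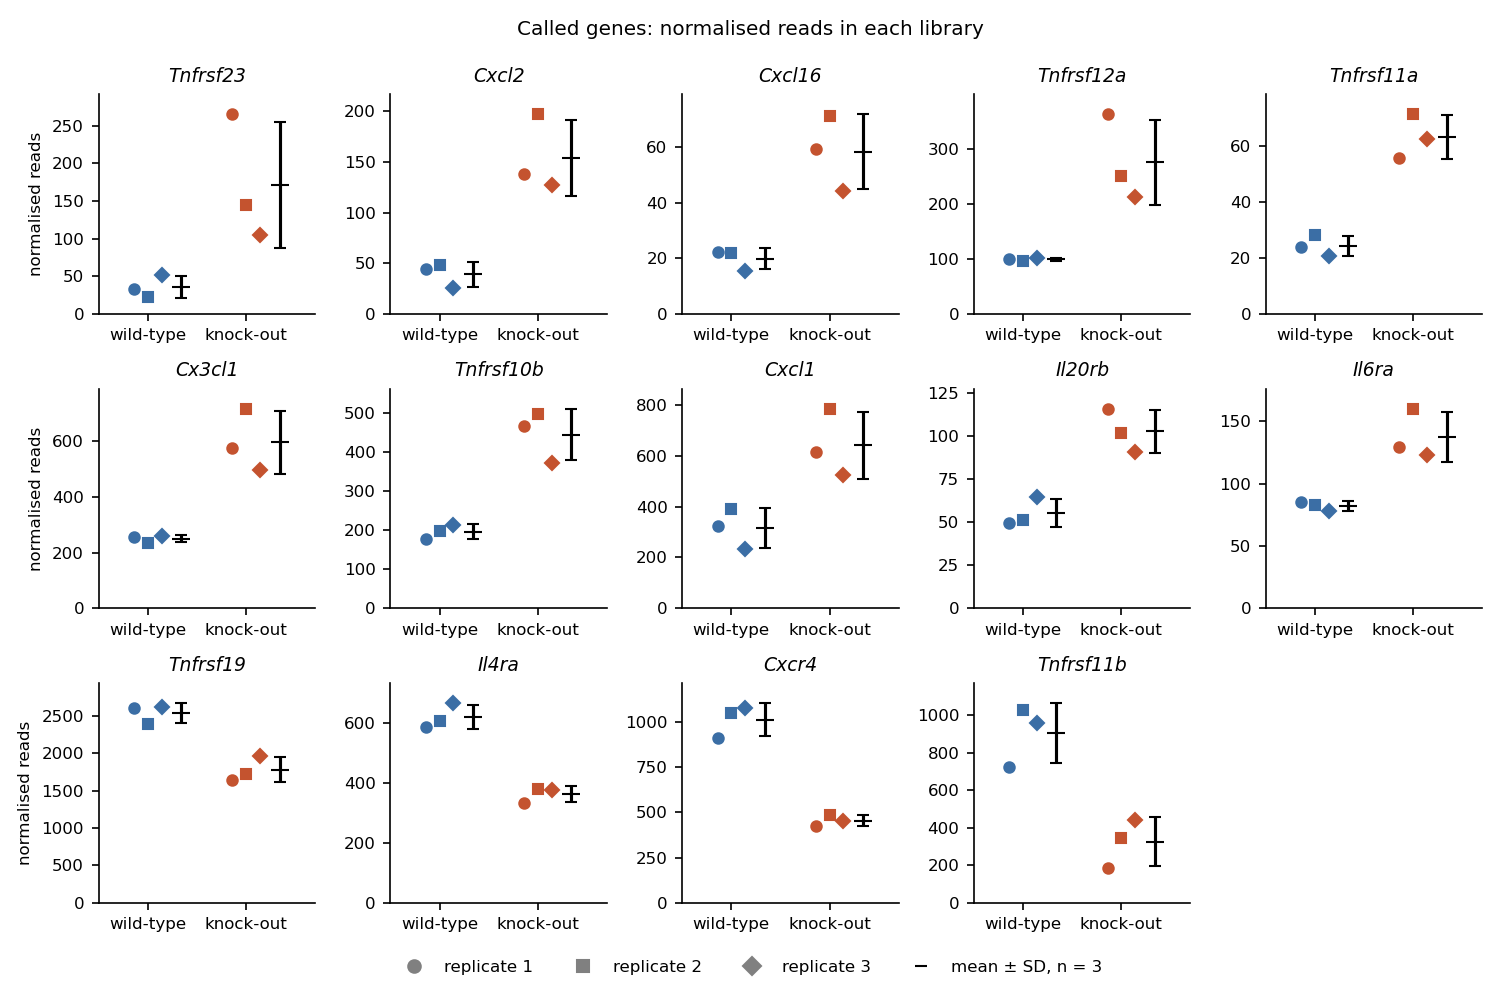
Normalised reads (linear axes from 0) of the 14 genes called, 1 panel a gene; points are libraries, marked by replicate number, and bars give the mean ± SD of 3 libraries. In every panel the 3 knock-out libraries lie on one side of all 3 wild-type libraries.

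The 5 interleukin ligand genes were low, with means over all libraries of 14.8 to 55.1 normalised reads. None was called by limma, DESeq2 or edgeR, while 1 had an unadjusted p under 0.05 in limma, against 19% of all genes. That gene was Il1b, the inflammatory cytokine interleukin 1 beta, with 14.9, 9.34 and 5.42 normalised reads in the wild-type mice against 28.3, 15.7 and 21.6 in the knock-outs. Its groups did not overlap (fold 2.19, 1.08 to 4.41, limma adjusted p = 0.211). Il15, which sustains lymphocytes, had 38.6, 51.4 and 46.9 normalised reads in the wild-type mice against 60.3, 39.8 and 71.5 in the knock-outs (fold 1.22, 0.79 to 1.90). Il16, a chemoattractant for CD4 cells, had 44.6, 72.1 and 19.0 normalised reads in the wild-type mice against 33.0, 60.7 and 101 in the knock-outs (fold 1.48, 0.62 to 3.49). The groups of both genes overlapped. Il33, an alarmin, had 17.8, 20.0 and 14.4 normalised reads in the wild-type mice against 15.1, 14.4 and 6.81 in the knock-outs (fold 0.68, 0.36 to 1.29). The other interleukin ligand, Il34, is described below with the receptor it shares with Csf1.

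Of the 20 genes of interleukin receptors and binding proteins 2 rose, 1 fell and 17 were not called (15% called, against 6.24% of all genes kept). Groups did not overlap in 10 (50%, against 25.5% of all genes kept). Il6ra, on chromosome 3 (89864059 to 89913196), encodes the chain that binds interleukin 6, and Il6st encodes gp130, the signalling chain it shares with other receptors. Il6ra had 85.4, 82.8 and 77.6 normalised reads in the wild-type mice against 129, 159.9 and 123 in the knock-outs. It rose 1.66-fold without overlap (1.25 to 2.19, limma adjusted p = 0.0490), close to the limit. Il6st, the seventh in level per length, had 3177, 3075 and 3217 normalised reads in the wild-type mice against 3081, 3277 and 2794 in the knock-outs, with fold 0.96 (0.83 to 1.11). The call of Il6ra was lost with wild-type 1, 2 or 3 or knock-out 1 or 2 left out (adjusted p = 0.142, 0.182, 0.150, 0.0778 and 0.136), with the replicate block (0.0836) or the pericyte (0.0580) or Y-linked level (0.110) in the fit, and with no filter (0.0505), pseudocount 10 (0.0507), quantile scaling (0.0509) or upper-quartile scaling (0.0510).

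Il20rb, on chromosome 9 (100457719 to 100486788), encodes a chain of the receptors for interleukins of the interleukin 10 family such as interleukin 20. It had 49.7, 51.4 and 65.0 normalised reads in the wild-type mice against 116, 102 and 90.8 in the knock-outs. It rose 1.85-fold without overlap (1.33 to 2.56, limma adjusted p = 0.0427). The call was lost with wild-type 1, 2 or 3 or knock-out 1 or 2 left out (adjusted p = 0.161, 0.183, 0.0679, 0.104 and 0.111), with the replicate block (0.0841), quantile scaling (0.0559), and the pericyte (0.0807) or Y-linked level (0.134) in the fit.

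Il4ra, on chromosome 7 (125552120 to 125579474), encodes the chain that binds interleukin 4 and also serves interleukin 13. It had 588, 608 and 666 normalised reads in the wild-type mice against 332, 381 and 378 in the knock-outs. Each knock-out library was below each wild-type library, and Il4ra fell (fold 0.59, 0.49 to 0.70, limma adjusted p = 0.00688), a call that held without each library in turn. Its partner chains did not pass the test: Il13ra1 had fold 0.89 (0.71 to 1.12) and Il2rg, the common gamma chain, 1.47 (1.11 to 1.96, adjusted p = 0.128). Of Il2rg's 50-base stretches 27.5% also occur in the overlapping gene model Gm20489.

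Il17ra, the chain common to the interleukin 17 receptors, had 100.2, 56.7 and 66.8 normalised reads in the wild-type mice against 131, 125 and 131 in the knock-outs, without overlap (fold 1.77, 1.22 to 2.56, limma adjusted p = 0.0848). It was called without wild-type 1 (0.0486), with the Y-linked level added (0.0476) and in DESeq2 (0.0469). Il17rd, known as Sef and as an inhibitor of fibroblast growth factor signalling, had 980.1, 989.9 and 1120.5 normalised reads in the wild-type mice against 802, 798 and 847 in the knock-outs, also without overlap (fold 0.79, 0.68 to 0.92, adjusted p = 0.0899; DESeq2 0.0483). Il10ra, which binds interleukin 10, had 9.65, 10.7 and 6.32 normalised reads in the wild-type mice against 12.3, 17.0 and 22.7 in the knock-outs (fold 1.84, 0.98 to 3.45, adjusted p = 0.282). Il1r1, the interleukin 1 receptor, had fold 0.93 (0.66 to 1.30), with knock-out 1 at 1133 normalised reads and the other 2 knock-out libraries below the wild-type range of 819.7 to 877.

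The TNF family was represented by 2 ligand and 13 receptor genes. Of the receptor genes 4 rose, 2 fell and 7 were not called (46.2% called, against 6.24% of all genes kept). Groups did not overlap in 8 receptor genes (61.5%, against 25.5% of all genes kept). Neither ligand gene was called by limma, DESeq2 or edgeR, and neither had an unadjusted p under 0.05. Tnfrsf10b, on chromosome 14 (69767472 to 69784411), encodes the mouse receptor with a death domain for the ligand TRAIL. It had 177, 198 and 214 normalised reads in the wild-type mice against 466, 498 and 371 in the knock-outs, and rose 2.25-fold without overlap (1.77 to 2.86, limma adjusted p = 0.00445). Tnfrsf23, on chromosome 7 (143665809 to 143685872), encodes a TRAIL-binding receptor that lacks a death domain. It had 32.7, 22.7 and 51.5 normalised reads in the wild-type mice against 265, 145 and 104 in the knock-outs. All knock-out values were higher but spread widely, 171 ± 83.5 (SD, n = 3), and the rise was 4.61-fold (2.44 to 8.71, adjusted p = 0.0172).

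Tnfrsf22, the neighbour of Tnfrsf23 at a distance of 16147 bases and a related TRAIL-binding receptor, had 125, 111 and 158 normalised reads in the wild-type mice against 230.1, 213 and 107 in the knock-outs. Its groups overlapped through knock-out 3 (fold 1.33, 0.83 to 2.14, limma adjusted p = 0.531). Of Tnfrsf23's 50-base stretches 18.0% also occur in Tnfrsf22, so reads could be split between them. Tnfsf10, the gene of TRAIL itself, had 610.4, 551 and 653 normalised reads in the wild-type mice against 455, 557 and 566 in the knock-outs (fold 0.87, 0.71 to 1.06). The call of Tnfrsf10b held without each library in turn, and that of Tnfrsf23 was lost with wild-type 1 or 2 or knock-out 2 left out (adjusted p = 0.0627, 0.0747 and 0.0626) and with the Y-linked level added (0.0533).

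Tnfrsf12a, on chromosome 17 (23675445 to 23677468), encodes Fn14, the receptor of the ligand TWEAK. It had 100.2, 96.1 and 101 normalised reads in the wild-type mice against 363, 251 and 213 in the knock-outs. The wild-type values were nearly equal and every knock-out value lay above them, a rise of 2.69-fold (1.94 to 3.74, limma adjusted p = 0.00690) that held without each library in turn. Tnfsf12, the gene of TWEAK, was low, with 23.0, 13.3 and 9.03 normalised reads in the wild-type mice against 18.9, 30.0 and 11.4 in the knock-outs (fold 1.30, 0.61 to 2.77). Of its 50-base stretches 46.8% also occur in the read-through gene model Tnfsfm13.

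Tnfrsf11a encodes RANK, the receptor of RANKL, and Tnfrsf11b encodes osteoprotegerin, a secreted decoy that binds RANKL and TRAIL; they moved in opposite directions. Tnfrsf11a, on chromosome 1 (105780718 to 105847981), had 23.8, 28.0 and 20.8 normalised reads in the wild-type mice against 55.6, 71.1 and 62.4 in the knock-outs, and rose 2.55-fold without overlap (1.73 to 3.76, limma adjusted p = 0.0171). Tnfrsf11b, on chromosome 15 (54250619 to 54278484), had 725, 1029 and 959 normalised reads in the wild-type mice against 188, 348 and 443 in the knock-outs. Every knock-out library was below every wild-type library, and Tnfrsf11b fell (fold 0.34, 0.22 to 0.55, adjusted p = 0.0212). The call of Tnfrsf11a was lost with wild-type 1, 2 or 3 or knock-out 2 left out (adjusted p = 0.0670, 0.0603, 0.0626 and 0.0688) and with the Y-linked level added (0.0561), and that of Tnfrsf11b with wild-type 2 or 3 or knock-out 2 left out (0.0998, 0.0744 and 0.0631).

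Tnfrsf19, on chromosome 14 (60963875 to 61046490), encodes the receptor TROY, which has been described in brain endothelium and in glia. It had 2602, 2392 and 2626 normalised reads in the wild-type mice against 1644, 1729.6 and 1969.6 in the knock-outs, and fell (fold 0.70, 0.60 to 0.82, limma adjusted p = 0.0216) with no overlap. The call was lost with wild-type 1, 2 or 3 or knock-out 2 left out (adjusted p = 0.0946, 0.0790, 0.0870 and 0.0717) and with the Y-linked level added (0.0737). The 2 TNF receptors proper did not pass the test, Tnfrsf1a with fold 0.91 (0.76 to 1.1) and Tnfrsf1b with 1.13 (0.86 to 1.5). Tnfrsf21, the death receptor DR6, had 1491, 1316 and 1054 normalised reads in the wild-type mice against 875, 1181 and 968 in the knock-outs, with 1 knock-out library inside the wild-type range (fold 0.79, 0.61 to 1.01).

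None of the 5 colony stimulating factor and receptor genes was called by limma, DESeq2 or edgeR. An unadjusted p under 0.05 in limma was seen in 1 of them, against 19% of all genes. Csf1, which sustains macrophages and microglia, had 959, 1001 and 849.6 normalised reads in the wild-type mice against 741, 959 and 863 in the knock-outs (fold 0.91, 0.75 to 1.11). The groups of Il34, the other ligand of Csf1r, overlapped only in that wild-type 3 lay below knock-out 2. Il34 had 64.6, 56.7 and 37.0 normalised reads in the wild-type mice against 36.8, 41.8 and 22.7 in the knock-outs (fold 0.64, 0.38 to 1.08). Their receptor gene Csf1r, a marker of microglia, had 52.7, 58.7 and 69.5 normalised reads in the wild-type mice against 58.5, 82.9 and 61.3 in the knock-outs (fold 1.11, 0.77 to 1.60).

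Csf3r, the neutrophil growth factor receptor gene, had 23.0, 19.4 and 20.8 normalised reads in the wild-type mice against 8.49, 7.83 and 14.8 in the knock-outs, without overlap (fold 0.50, 0.28 to 0.89, limma adjusted p = 0.177). Csf2ra and Csf2rb, the chains of the receptor for granulocyte-macrophage colony stimulating factor, had fold 1.29 (0.96 to 1.74) and 2.10 (0.97 to 4.53). Csf2ra's groups did not overlap, with 71.3, 88.8 and 76.7 normalised reads in the wild-type mice against 115, 98.6 and 93.1 in the knock-outs. Il4i1, an amino acid oxidase that the symbol rule also takes in, had fold 0.97.

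**Figure D3:**
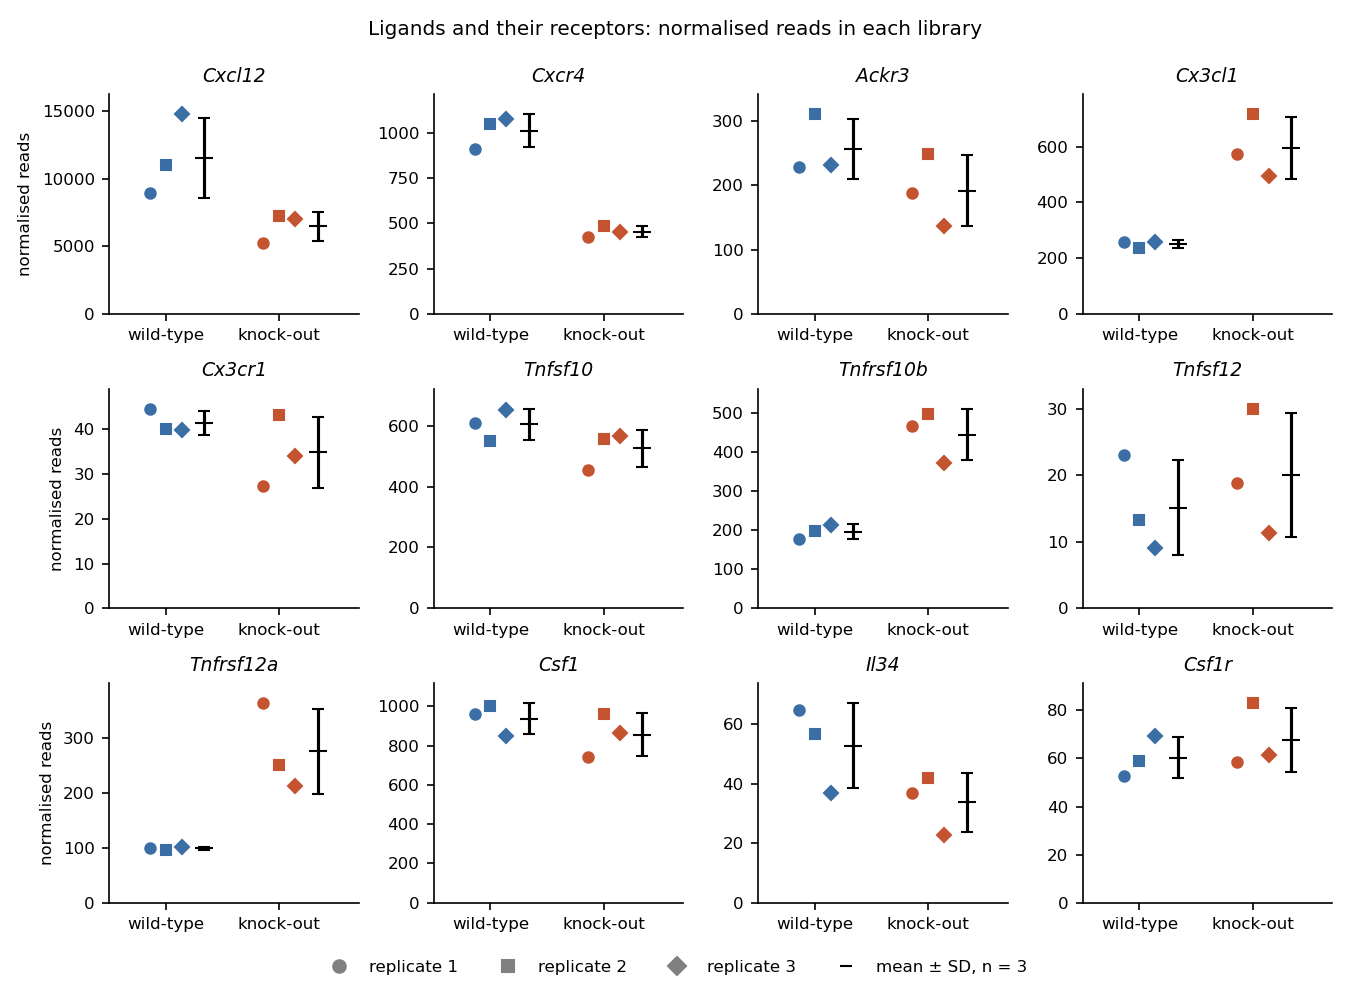
Normalised reads (linear axes from 0) of ligand and receptor genes that belong together, 1 panel a gene; points are libraries, marked by replicate number, and bars give the mean ± SD of 3 libraries. Cx3cl1, Tnfrsf10b and Tnfrsf12a rose, while the groups of their partners Cx3cr1, Tnfsf10 and Tnfsf12 overlap.

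Among the sets Cxcl12, Cxcr4 and Ackr3; Cx3cl1 and Cx3cr1; Tnfsf12 and Tnfrsf12a; and Tnfsf10 and Tnfrsf10b, 1 gene of each was called. Both receptors of RANKL, Tnfrsf11a and Tnfrsf11b, were. Il6ra was called and Il6st was not, and of Csf1, Il34 and Csf1r none was. Whether the changes of partners differ from each other was not tested. Tnfsf11 (RANKL), Il6, Ccl2, Ccr2 and Il1rl1 are not analysed here.

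Per length, Cxcl12 was followed in wild-type by Cxcr4 with 561 ± 49.6 and Tnfrsf19 with 536 ± 27.2 normalised reads per kb of exon (SD, n = 3), whose ranges overlapped. Ackr2 came next with 401 ± 25.9, and neither its range nor that of Cxcl12 met the next gene's. Tnfrsf11b (321 ± 56.6) overlapped with Tnfrsf21 (313 ± 53.6), and Tnfrsf21 with Il6st (284 ± 6.59). Cxcl1 was the highest of the genes that rose, with a level of 168 ± 42.4 normalised reads per kb. The lowest level was that of Csf2rb, 0.954.

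**Figure D4:**
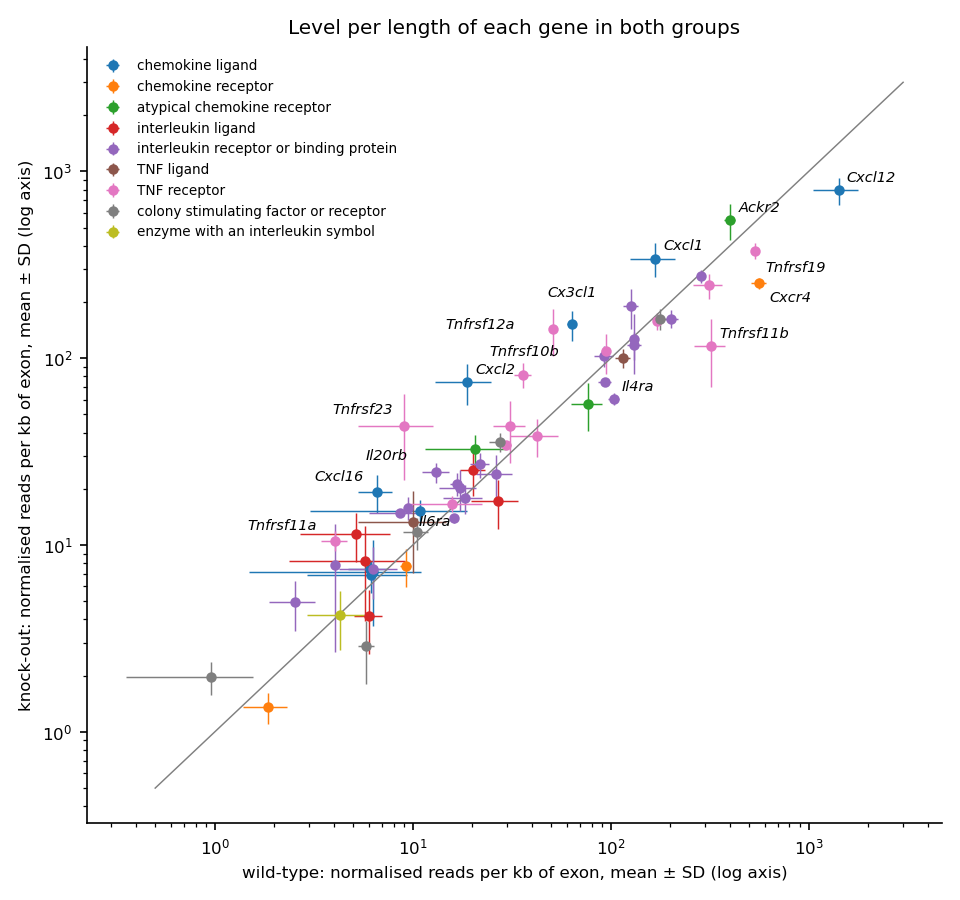
Level per length of each of the 61 genes, wild-type on the x axis and knock-out on the y axis (normalised reads per kb of exon, both log axes); points are means of 3 libraries, bars are SD, colours are roles and the line marks equal levels. Of the 5 genes of the highest wild-type level, Cxcl12, Cxcr4, Tnfrsf19 and Tnfrsf11b lie below the line and Ackr2 above it.

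Of the 61 genes 52 reached the minimum of 10 in all 6 libraries, and none was kept with no library of 1 group at the minimum. Genes just inside it, at the minimum in 4 libraries, were Ccl6, Csf2rb, Csf3r, Il10ra and Il1b. Csf2rb, Il10ra and Il1b reached it in 3 knock-out libraries and 1 wild-type library, and Csf3r in 3 wild-type libraries and 1 knock-out library. Each of them passed the filter only through the group where it was higher. The lack of overlap between groups in Csf3r, Il10ra and Il1b is therefore not independent of the filter. Just outside lay Ccl28, with 5.20, 10.01 and 5.42 normalised reads in the wild-type mice against 8.49, 6.53 and 15.9 in the knock-outs. Il1rapl1 reached the minimum in 1 library, and Il18 in none.

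A match to the NF-kappaB consensus (10 bases, either strand) lay in the 250 bases before the RefSeq start in 8 of the 48 genes with a promoter in the RefSeq table (16.7%), against 4.46% of 27025 genes. Of the 8 genes that rose and have a promoter there, Cxcl1 and Cxcl2 held it. The other 6 matches were in genes not called, Ackr2, Csf1, Cxcl10, Il16, Il1r1 and Tnfrsf8. None of the 3 genes that fell and have a promoter held a match. CACCC, the core bound by KLF factors, lay in 34 of the 48 (70.8%) and in 54.5% of all genes; it was in 4 of the 8 that rose and 3 of the 3 that fell. A match describes these letters only.

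Around these genes, ligands and receptors of the same families with other symbols were followed in a list of 39 genes, of which 21 were kept. There 2 rose, 3 fell and 16 were not called (3.6% rose and 2.64% fell over all genes kept), with a median log2 change of -0.19. Tnf, the founding ligand of its family, had 30.4, 23.4 and 17.2 normalised reads in the wild-type mice against 66.0, 102 and 47.7 in the knock-outs. It rose 2.89-fold without overlap (1.66 to 5.03, limma adjusted p = 0.0397). Kitl, the ligand of Kit, had 3866, 3896 and 4894 normalised reads in the wild-type mice against 7372, 6369 and 5619 in the knock-outs and rose 1.53-fold (adjusted p = 0.0368), while its receptor gene Kit fell (fold 0.76, adjusted p = 0.0415). Both calls were lost with the replicate block (0.0682 and 0.0929).

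Lifr and Osmr, the receptor genes for leukaemia inhibitory factor and oncostatin M and partners of Il6st, both fell. Lifr had 1206, 1282 and 1400.4 normalised reads in the wild-type mice against 496, 563 and 601 in the knock-outs (fold 0.43, limma adjusted p = 0.00140). Osmr had 2018, 2137 and 2421 normalised reads in the wild-type mice against 1592, 961 and 1109 in the knock-outs (fold 0.55, adjusted p = 0.0279). No group of either gene overlapped the other group. Of this list only Lifr kept its call without each library in turn; Tnf (adjusted p 0.0699 to 0.144) and Kit (0.0578 to 0.188) lost it without each library but knock-out 3, Osmr without each but knock-out 1 (0.0597 to 0.106), and Kitl without wild-type 1 or 2 or knock-out 1 or 2 (0.0781 to 0.166).

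Of 20 genes of TNF receptor signalling 5 rose, none fell and 15 were not called, with a median log2 change of 0.18. Over all genes kept 3.6% rose and 2.64% fell. Traf1, an adaptor of TNF receptors, had 21.5, 12.01 and 11.7 normalised reads in the wild-type mice against 104, 69.8 and 71.5 in the knock-outs and rose 5.24-fold (3.14 to 8.76, limma adjusted p = 0.00533). Tnfaip3, the inhibitor A20, rose 2.22-fold (adjusted p = 0.00104), and its binding partner Tnip1 1.66-fold (0.0285). Birc3, a ubiquitin ligase of the TNF receptor complex, rose 1.5-fold (0.0204), and Cflar, an inhibitor of caspase 8, 1.47-fold (0.0158). The calls of Traf1 and Tnfaip3 held without each library in turn, those of Birc3 (adjusted p 0.0524 to 0.106) and Cflar (0.0525 to 0.0850) were lost without each wild-type library or knock-out 2, and that of Tnip1 without wild-type 2 or 3 or knock-out 2 or 3 (0.0604 to 0.134).

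Of 15 genes of interleukin 1 and Toll adaptor signalling 1 rose, Irak3, an inhibitory member of the IRAK family (1.89-fold, limma adjusted p = 0.0489, 0.0748 to 0.208 without each library but knock-out 3 and 0.0915 with the replicate block), and none fell. Of 25 genes of JAK and STAT signalling none was called by limma or edgeR, DESeq2 called 3 (9.95% of all genes) and 7 had an unadjusted p under 0.05 (19% of all genes). Of 22 genes of chemokine receptor signalling 1 rose, 4 fell and 17 were not called (3.6% rose and 2.64% fell over all genes kept), with a median log2 change of 0.0055. Those that fell were Gnai1, a subunit of the inhibitory G protein (fold 0.53, adjusted p = 0.00285), Gng2, a gamma subunit (0.65, 0.0142), Rgs3, which speeds the shut-off of G proteins (0.49, 0.0107), and Pik3cg, a lipid kinase activated by them (0.45, 0.00274). Rgs16, a relative of Rgs3, rose 1.71-fold (0.0331). Gnai1 and Pik3cg held without each library in turn, Rgs3 was lost without wild-type 2 (0.0591), Gng2 without wild-type 1 or 2 (0.0770 and 0.0891), and Rgs16 without each library but knock-out 1 (0.0510 to 0.103).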

How the data were processed

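RNA-seq was made from 6 libraries of cerebellar endothelial cells, 3 from wild-type and 3 from Ccm3 knock-out mice. Per the labels' protocols, total RNA was depleted of ribosomal RNA and made into stranded libraries. Per the submitters' processing notes, Trim Galore, STAR 2.5.3a, GRCm38 and DESeq2 were used; counter, annotation, gene filter and strand setting: not given in the sources used here. The deposited values are a normalised signal per gene, counts which the authors scaled with a size factor for each library. All values (100% in each library) were whole multiples of the value of 1 read, within 0.01 of a read, and the reads were recovered (11075769 to 21142333 per library; 182 to 309 for the median gene). The table lists 14437 genes, the fewest reads of a gene being 12; 137 had no symbol and 81 of these were given one from the reference names. Positions and exon lengths are from GENCODE M21 (GRCm38), and promoters from RefSeq.

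The 14076 genes that reached a value of 10 in 3 or more libraries were fitted in limma 3.58.1 (R 4.3.3) on log2(value + 1) (genotype only, trended empirical Bayes, two-sided, Benjamini-Hochberg over all genes kept, limit 0.05). The p-values measure the spread between these libraries, which the sample titles number 1 to 3 in each group. Whether each library is 1 mouse or a pool of mice was not tested, and Y-linked sums ranged from 813 to 4017 outside wild-type 1. Adding 1 draws the fold of low genes towards 1, and brackets give 95% intervals. Compared with the ratio of unlogged means, the fold of a low gene can lie on either side. It was higher for Cxcl10 (1.62 against 1.38) and Ccl6 (1.37 against 1.15), and lower for Il10ra (1.84 against 1.95). DESeq2 1.42.0 and edgeR 4.0.16 were run on the recovered reads as alternatives, in which edgeR called 897 genes and DESeq2 1373, against 879. The fit was also tested on simulated counts, with the same spread setting for every gene and no differences in cell mix or sex. That test therefore does not show how reliable the calls in these libraries are. Other alternatives were another pseudocount, filter, scaling and array weights, a block, each library left out, and a marker level as a term. Replicates differed by far more than sampling noise (chi-square 13.9 to 57.4 per degree of freedom).

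Replicates are numbered 1 to 3 in either group by the labels. Deviations from the group means correlated between same-numbered libraries at 0.10, 0.11 and 0.19 (other pairs -0.38 to 0.30). The check therefore does not set same-numbered libraries apart, and no label says what the numbers share. The main fit leaves the numbers out, and a fit with them as a block is given as an alternative. Blocked values stand beside the results they change.

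Genes described in full are every one called, the 2 of the highest mean in each role, partners of fixed ligand and receptor sets, and those not called whose groups do not overlap and whose fold is past 1.5. Called genes of the lists around them, and Cxcl10, Ccr9, Il1r1, Il2rg, Tnfrsf22 and others not under this rule, were named after their values were seen. Of the genes not kept, 1 is not reported here. The members and lists were chosen with earlier results of these data known.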

Additional observations from a re-analysis of the deposited data

How the results depend on the processing

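Over all genes 879 were called, and 283 to 1032 without 1 library in turn; of the 61 genes 4 to 11 rose and 2 to 4 fell (10 and 4 with all libraries), and in the lists around them 2 to 10 rose and 3 to 7 fell (9 and 7). With the microglia and macrophage level in the fit 3 of all genes were called, with 0 of the 61 risen, 0 fallen, and 0 and 0 in the lists. With the Y-linked level 457 genes were called, and 5 of the 61 and 3 list genes rose. DESeq2 called 1373 genes, with 14 list genes risen, and array weights also gave 14. The cause of these shifts was not tested. With the replicate block, where same-numbered libraries are paired, 769 genes were called, 8 of the 61 rose and 5 fell; Cxcl12 was gained (adjusted p = 0.0147), Il6ra (0.0836), Il20rb (0.0841), Kitl (0.0682), Kit (0.0929) and Irak3 (0.0915) were lost, and no other named gene changed its call. The log2 change of Csf1r ranged from -0.0017 (without knock-out 2) to 0.26 with 1 library left out, that of Il6st from -0.11 to 0.0097 (without knock-out 3), and that of Il16 turned to -0.30 with the microglia level; none of them was called. Of the list genes, the Y-linked level also ended the calls of Tnf, Kit, Kitl, Birc3, Cflar, Gng2, Irak3 and Rgs16 (adjusted p 0.0533 to 0.127), the pericyte level those of Kit (0.0542), Kitl (0.0663) and Irak3 (0.0925), quantile scaling those of Tnf (0.0569) and Irak3 (0.0675), and upper-quartile scaling (0.0503) or no filter (0.0501) that of Irak3. With a minimum value of 50, 26 of the 35 genes described in full could be fitted, so Cxcl16 and other low genes have no value there. Of the 14 called genes 6 kept their call without each library in turn (Cx3cl1, Cxcl2, Cxcr4, Il4ra, Tnfrsf10b and Tnfrsf12a). At these depths genes such as Il1b and Il10ra rest on few reads.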

Other observations

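Il1rapl1, a synaptic relative of the interleukin 1 receptors that was not kept, had 39.7 normalised reads in knock-out 3 and 5.20 to 9.34 in the other libraries. The neuron marker sum was also highest in knock-out 3, 5653 against 2708 to 4589. Il18rap, a chain of the interleukin 18 receptor, had 88.6, 50.3 and 19.3 normalised reads in knock-out 1, 2 and 3, on both sides of the narrow wild-type values of 28.2, 26.0 and 28.0.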
